A study of Mus musculus with 48 samples.

Results

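The levels of 10 liver genes of sulfur amino acid and methyl group metabolism were followed across 48 mice of the FCG model on a high-fat diet (HFD). The genes were Csad, Cdo1, Cth, Cbs, Bhmt, Gnmt, Mat1a, Inmt, Pemt and Gamt, which are 10 of the 55414 genes in the deposited count table. They were chosen by the low measured Csad level of castrated mice and by their place in its pathway, so the comparison of castrated mice with mice that kept their testes is given for all 10 genes as a description, with no test. In FCG mice, Sry is missing from the Y chromosome, written XY-, and is carried instead as an autosomal transgene, written SryTg. A mouse with the transgene therefore develops testes whether it is XX or XY, and a mouse without it develops ovaries. On a C57BL/6 background, the 4 genotypes were XX and XY- mice with ovaries, here called XX Ov and XY Ov, and XX;SryTg and XY-;SryTg mice with testes, here called XX Te and XY Te. Each genotype had 6 mice with intact gonads (Intact) and 6 from which the gonads had been removed at 75 days of age (GDX), which made 8 groups. All mice began a diet with 60% of calories from fat at 15 to 17 weeks of age, for 11 weeks in Intact and 15 weeks in GDX mice by the labels. The study's methods give a shorter diet for Intact and a longer one for GDX mice, so the gap in diet between the cohorts is not settled here. Whenever GDX mice are set against Intact mice, the surgery, the weeks of diet and the cohort therefore cannot be told apart.

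Methionine is turned into S-adenosylmethionine, the methyl donor of the cell, by the enzyme that Mat1a encodes in hepatocytes. Methyltransferases such as those of Gnmt, Pemt, Gamt and Inmt use that donor, and the homocysteine that remains is either remethylated, with betaine as the methyl source, by the Bhmt enzyme or passed through Cbs and Cth to cysteine. Cdo1 and Csad encode the next steps, from cysteine through cysteine sulfinate to hypotaurine, which is oxidized to taurine, the amino acid that mouse liver joins to bile acids. These reactions are most active in hepatocytes, and liver is a main site of methionine use in the body.

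RNA from whole liver was sequenced, and 13071874 to 20045141 reads per mouse were counted on genes (median 16577748). At that depth 3 reads corresponded to 0.150 to 0.230 on the counts-per-million (CPM) scale. Every one of the 10 genes had at least 295 reads in every mouse, far above 3 reads. All 10 passed the filter on low counts, which kept 15414 genes. Hepatocyte markers were high in every mouse, with Alb between 47892 and 118541 normalised CPM. Xist separated the karyotypes, with 166 to 1203 normalised CPM in the 24 XX mice and 0.437 to 7.49 in the 24 XY mice. Markers of other cells moved with the groups. The summed level of the 4 macrophage markers (Adgre1, Clec4f, Cd5l and Marco, none at 0 in any mouse) was 102 to 501 normalised CPM in XX and 203 to 875 in XY mice, and all 4 were lower in XX mice past the test. The summed level of the 3 neutrophil markers was 0.0786 to 27.5 in XX and 1.09 to 767 in XY mice, with Ly6g at 0 in 34 mice. Cholangiocyte and lymphocyte markers had medians between 0.407 and 2.71. Pancreas markers were at or near 0 (Prss2 at 0 in 47 mice, Cpa1 at 0 in 46) except Cela1, with a median of 6.67. Of 3 genes typical of the gonads, Insl3 had a median of 0.0667 and Star of 2.65, and Cyp17a1, which mouse liver also expresses, 120. Reads that fell outside genes made up 3.47 to 6.20% of the reads in Intact and 8.52 to 11.3% in GDX mice. Of the libraries, 3 (2 of XX Ov Intact and 1 of XY Te Intact mice) stood farthest from their groups, with a root mean square deviation of 0.468 to 0.535 on the log2 scale against 0.191 to 0.408 in the other Intact mice, and results are given without them where they mattered. In bulk tissue, fewer cells of a type and less RNA per cell cannot be told apart.

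Levels are given as normalised CPM, which are reads divided by the library's gene reads and by its TMM factor, a scaling that assumes most genes do not differ between libraries. The TMM factor itself moved with the groups, with a median of 0.916 in Intact mice, 1.02 in GDX XX mice and 1.15 in GDX XY mice. Scaling by library totals alone moved the median log2 fold change of all 15414 genes from 0.06 to 0.27 after ovariectomy and from 0.05 to -0.05 between XX and XY mice, so values with that scaling are set beside those of the 10 genes where it moved them.

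To show the start regions of the genes whose levels differed most between groups, RefSeq promoter windows are printed for Csad, Inmt, Gnmt and Bhmt. Windows were found for 7 of the 10 genes, 9 windows in all, and none was at hand for Cdo1, Cth and Mat1a. Each window runs from 250 bases before to 50 bases after an annotated transcription start, 5′ to 3′ on the gene's own strand, which is the minus strand for all 4 genes, in build GRCm38.p6 (the counts were made on GRCm39). Csad has 2 annotated starts. Capitals mark matches on either strand to CCAAT (the NF-Y box), TTCNNNGAA (a STAT motif), AGAACA (a half-site of the androgen and glucocorticoid receptors) or AGGTCA (a half-site of many nuclear receptors), and no matches overlap. Positions are counted from 0 at the transcription start.
Csad, chr15:102205003-102205302: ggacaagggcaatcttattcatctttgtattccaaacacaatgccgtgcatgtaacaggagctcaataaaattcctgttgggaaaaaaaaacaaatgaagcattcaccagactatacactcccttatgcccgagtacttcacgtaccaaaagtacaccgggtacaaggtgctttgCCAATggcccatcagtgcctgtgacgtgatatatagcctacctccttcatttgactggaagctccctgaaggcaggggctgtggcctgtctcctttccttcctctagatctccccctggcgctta
Csad, chr15:102188994-102189293: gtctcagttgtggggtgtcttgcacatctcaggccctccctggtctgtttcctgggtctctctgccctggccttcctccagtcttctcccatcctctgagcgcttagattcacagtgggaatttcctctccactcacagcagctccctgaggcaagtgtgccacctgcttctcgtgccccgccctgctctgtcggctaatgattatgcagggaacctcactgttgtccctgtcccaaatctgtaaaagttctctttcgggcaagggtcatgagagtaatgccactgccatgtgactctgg
Inmt, chr6:55174941-55175240: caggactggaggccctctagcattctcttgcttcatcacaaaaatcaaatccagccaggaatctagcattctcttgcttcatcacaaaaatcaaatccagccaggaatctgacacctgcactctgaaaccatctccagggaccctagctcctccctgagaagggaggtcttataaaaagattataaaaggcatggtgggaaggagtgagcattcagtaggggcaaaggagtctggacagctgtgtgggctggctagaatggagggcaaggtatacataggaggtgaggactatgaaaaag
Gnmt, chr17:46729116-46729415: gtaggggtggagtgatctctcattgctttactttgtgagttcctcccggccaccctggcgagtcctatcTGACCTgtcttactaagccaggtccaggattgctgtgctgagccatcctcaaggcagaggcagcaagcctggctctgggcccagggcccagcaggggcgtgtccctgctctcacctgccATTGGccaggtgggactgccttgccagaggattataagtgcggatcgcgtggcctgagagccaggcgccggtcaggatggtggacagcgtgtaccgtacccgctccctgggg
Bhmt, chr13:93637709-93638008: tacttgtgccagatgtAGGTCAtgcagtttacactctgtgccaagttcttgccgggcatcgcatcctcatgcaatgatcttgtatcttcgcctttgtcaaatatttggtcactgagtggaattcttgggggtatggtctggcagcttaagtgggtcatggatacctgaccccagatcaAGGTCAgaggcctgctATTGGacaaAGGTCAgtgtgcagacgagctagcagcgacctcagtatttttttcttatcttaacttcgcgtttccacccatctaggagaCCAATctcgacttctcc
The first Csad window held 1 CCAAT, beginning at -75 from the start, and the second held none of the 4 motifs. The Inmt window also held none. Gnmt held 1 CCAAT at -62 and 1 AGGTCA at -181, both on the other strand. Bhmt held 3 AGGTCA, at -234, -72 and -47, and 2 CCAAT. Among 32851 mouse promoter windows of the same length, CCAAT was in 37.4%, AGAACA in 19.0%, AGGTCA in 16.3% and TTCNNNGAA in 8.30%. A match is a description of the letters and shows no binding.

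Per kilobase of exon, Mat1a had the highest median of the 10 genes over the 48 mice, 1075 normalised CPM per kb, followed by Cdo1 with 867 and Gnmt with 711. Inmt (197), Bhmt (173) and Cth (98.7) came next, and Cbs (81.7), Gamt (80.9) and Pemt (68.5) lay close together. Csad had the lowest median, 20.2 normalised CPM per kb. Csad also varied most between groups. Its highest group median was 4.24 times its lowest, against 3.39 for Inmt, 2.35 for Cth, and 1.33 for Cdo1, the least variable. For Csad these groups were XX Te Intact and XX Te GDX, the comparison by which the genes were chosen, so its rank is only a description. The coefficient of variation within a group of 6 reached 66.7% for Csad and 56.3% for Bhmt, and was at most 15.8% for Pemt.

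Csad, which encodes cysteine sulfinic acid decarboxylase, was high in mice with intact testes and low in castrated mice of both karyotypes. In XX Te Intact mice it ranged from 44.0 to 221 normalised CPM (median 128), and in XY Te Intact mice from 79.7 to 195 (median 102). After castration it ranged from 23.3 to 57.1 in XX Te (median 30.1) and from 17.0 to 33.4 in XY Te (median 31.3). Thus, 10 of the 12 castrated mice lay below every mouse with intact testes, and 1 XX Te Intact mouse, at 44.0, lay within the castrated range. The fitted log2 fold change was -1.99 (SE 0.28), a level 3.98 times lower, with -1.85 in XX and -2.13 in XY mice. These values chose the genes and are a description. Of all tested genes 63.3% passed the test in the castration comparison.

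**Figure D1:**
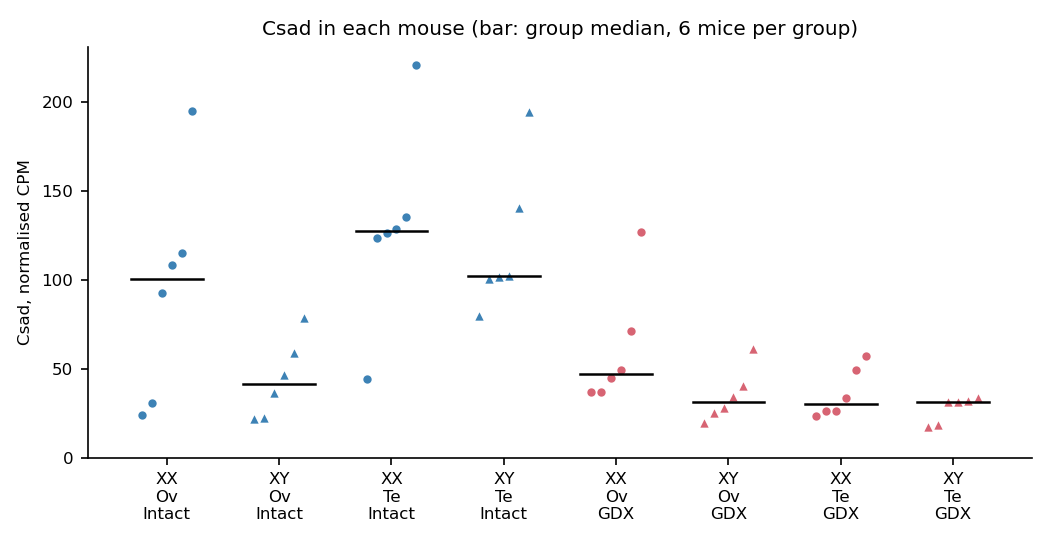
Csad level in each of 48 mice by group, in normalised CPM from 0 on a linear axis, with circles for XX, triangles for XY, blue for Intact, red for GDX and a bar at each group median. The XX Te Intact and XY Te Intact medians (128 and 102) lie above the 4 GDX medians (30.1 to 47.1), and XX Ov Intact spans almost the whole range (23.9 to 195).

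In mice with ovaries, Csad was scattered and did not pass the test after ovariectomy. XX Ov Intact mice ranged from 23.9 to 195 normalised CPM (median 101), and XY Ov Intact from 21.5 to 78.4 (median 41.4). XX Ov GDX mice ranged from 36.7 to 127 (median 47.1), and XY Ov GDX from 19.3 to 61.2 (median 31.1). Only 1 of the 12 GDX mice lay below all Intact mice with ovaries. The log2 fold change was -0.49 (SE 0.27, interval of 2 SE from -1.03 to 0.05), with adjusted p = 0.104 in edgeR's quasi-likelihood test. The side of the threshold depended on single mice. Csad passed without XX Ov GDX mouse 4 (log2 -0.66, adjusted p = 0.0259), XX Ov Intact mouse 1 (-0.59, 0.0413), XY Ov GDX mouse 2 (-0.61, 0.0468) or XX Ov Intact mouse 2 (-0.58, 0.0497), and the adjusted p reached 0.286 without others. With library totals the log2 fold change was -0.31 (adjusted p = 0.324). Compared as a description, since they share mice with the castration comparison, Csad was 1.93 times lower in Ov Intact than in Te Intact mice (log2 -0.95, SE 0.27). After GDX the order of the gonadal types was the other way, with a log2 difference of 0.55 (SE 0.27). In the order of the 8 group medians, from XX Te GDX at 30.1 to XX Te Intact at 128, each group overlapped the next.

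After ovariectomy 4 of the 10 genes were lower than in Ov Intact mice past the test, and none was higher. These were the cysteine-forming Cth, the glycine methyltransferase gene Gnmt, the indolethylamine methyltransferase gene Inmt and Pemt, whose enzyme makes phosphatidylcholine from phosphatidylethanolamine. Of all genes tested, 69.4% passed in this comparison, 36.0% higher and 33.4% lower. The 4 lower genes of 10 are near the background of that direction. The total of 4 and the lack of higher genes lie below their backgrounds, and that gap was not tested. The median log2 fold change of the 10 genes was -0.31, against 0.06 over all genes.

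Inmt showed the largest change of these. In XX Ov Intact mice it ranged from 311 to 1193 normalised CPM (median 685) and in XY Ov Intact mice from 298 to 1281 (median 664), against 232 to 461 (median 293) and 247 to 352 (median 279) after ovariectomy. In each Intact group 3 of 6 mice were at 856 or above, and the lowest Intact mice lay within the GDX ranges. Inmt was 2.30 times lower after ovariectomy (log2 -1.20, SE 0.19, adjusted p = 7.53e-07).

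Cth, which encodes cystathionine gamma-lyase, the last step to cysteine, fell 1.92 times (log2 -0.94, SE 0.19, adjusted p = 3.59e-05). It ranged from 156 to 532 normalised CPM in Ov Intact mice (median 321) and from 115 to 280 in Ov GDX mice (median 168). Gnmt, whose enzyme removes surplus S-adenosylmethionine, fell 1.87 times (log2 -0.91, SE 0.17, adjusted p = 1.66e-05). Its range narrowed from 580 to 2180 in Ov Intact (median 1411) to 600.2 to 971 in Ov GDX mice (median 751), and no GDX mouse lay below all Intact mice. For both genes the lowest Intact mice were below the GDX median and the highest far above all GDX mice.

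Pemt changed less but overlapped less. It ranged from 155 to 233 normalised CPM in XX Ov Intact (median 192) and from 138 to 148 in XX Ov GDX mice (median 145). In XY mice it ranged from 143 to 219 (median 169.9) and from 111 to 128 after ovariectomy (median 118). Within each karyotype the GDX and Intact ranges did not overlap, as held for 19.5% of all tested genes in XX and 34.0% in XY mice. The same was true without the TMM factor, where it held for 18.6% and 37.0% of all genes. Pemt was 1.41 times lower (log2 -0.49, SE 0.07, adjusted p = 1.18e-07), and with library totals the log2 fold change was -0.26 (adjusted p = 1.73e-05).

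The falls of Cth, Gnmt and Inmt did not hold in a fit with 1 surrogate variable, an axis of variation estimated from all genes. There the log2 fold changes were -0.17 (adjusted p = 0.424), -0.07 (0.665) and -0.37 (0.0560), while Pemt stayed at -0.24 (0.00104), and Csad (-0.95, 0.0130), Bhmt (1.22, 0.000593), Mat1a (0.28, 0.0178) and Gamt (0.25, 0.0383) passed. With library totals the falls of Cth (-0.69), Gnmt (-0.64) and Inmt (-0.92) were smaller and still passed. The surrogate variable itself differed between the arms, from -0.10 to 0.41 in Ov Intact and from -0.15 to -0.04 in Ov GDX mice, so it was not independent of the comparison. The summed neutrophil markers were also lower after ovariectomy, at 1.43 to 767 normalised CPM in Ov Intact and 0.595 to 41.2 in Ov GDX mice, and both markers that could be tested fell, as did 2 of 4 lymphocyte and 1 of 4 macrophage markers and the pancreas marker Cela1. Of the 6 hepatocyte markers 3 fell and 1 rose, with sums of 68719 to 135667 in Ov Intact and 66484 to 102923 in Ov GDX mice. Of the 5 stellate cell and fibroblast markers 3 rose and 1 fell, with sums of 271 to 492 and 292 to 664. Of the 4 cholangiocyte markers 2 rose (sums of 1.66 to 5.94 and 3.46 to 9.79), and of the 4 sinusoidal endothelium markers 1 rose and 1 fell. The part of these markers in the result was not tested.

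The other 5 genes did not pass after ovariectomy. Cdo1, the cysteine dioxygenase gene, had a log2 fold change of -0.14 (SE 0.07, adjusted p = 0.0872), and passed without XY Ov Intact mouse 2 (-0.17, 0.0311) or XX Ov Intact mouse 4 (-0.19, 0.0136). With library totals its sign turned, to 0.078 (adjusted p = 0.331). Cbs, the cystathionine beta-synthase gene, had 0.09 (SE 0.14, adjusted p = 0.552), with 0.27 (0.110) by library totals and -0.20 (0.266) with 1 surrogate variable. Bhmt (0.42, adjusted p = 0.159), Mat1a (0.12, 0.207) and Gamt (0.15, 0.119), whose enzyme makes creatine, had positive values, and all 3 passed with library totals, at 0.68, 0.35 and 0.37. In edgeR's interaction test of chromosomes with ovariectomy, 0 of the 10 genes passed (none with an unadjusted p under 0.05), and 0.0% of all genes did. For Inmt the difference of the effects was 0.17 (interval -0.59 to 0.93) and for Pemt 0.13 (-0.16 to 0.41), so differences within those intervals could not be told from 0.

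**Figure D2:**
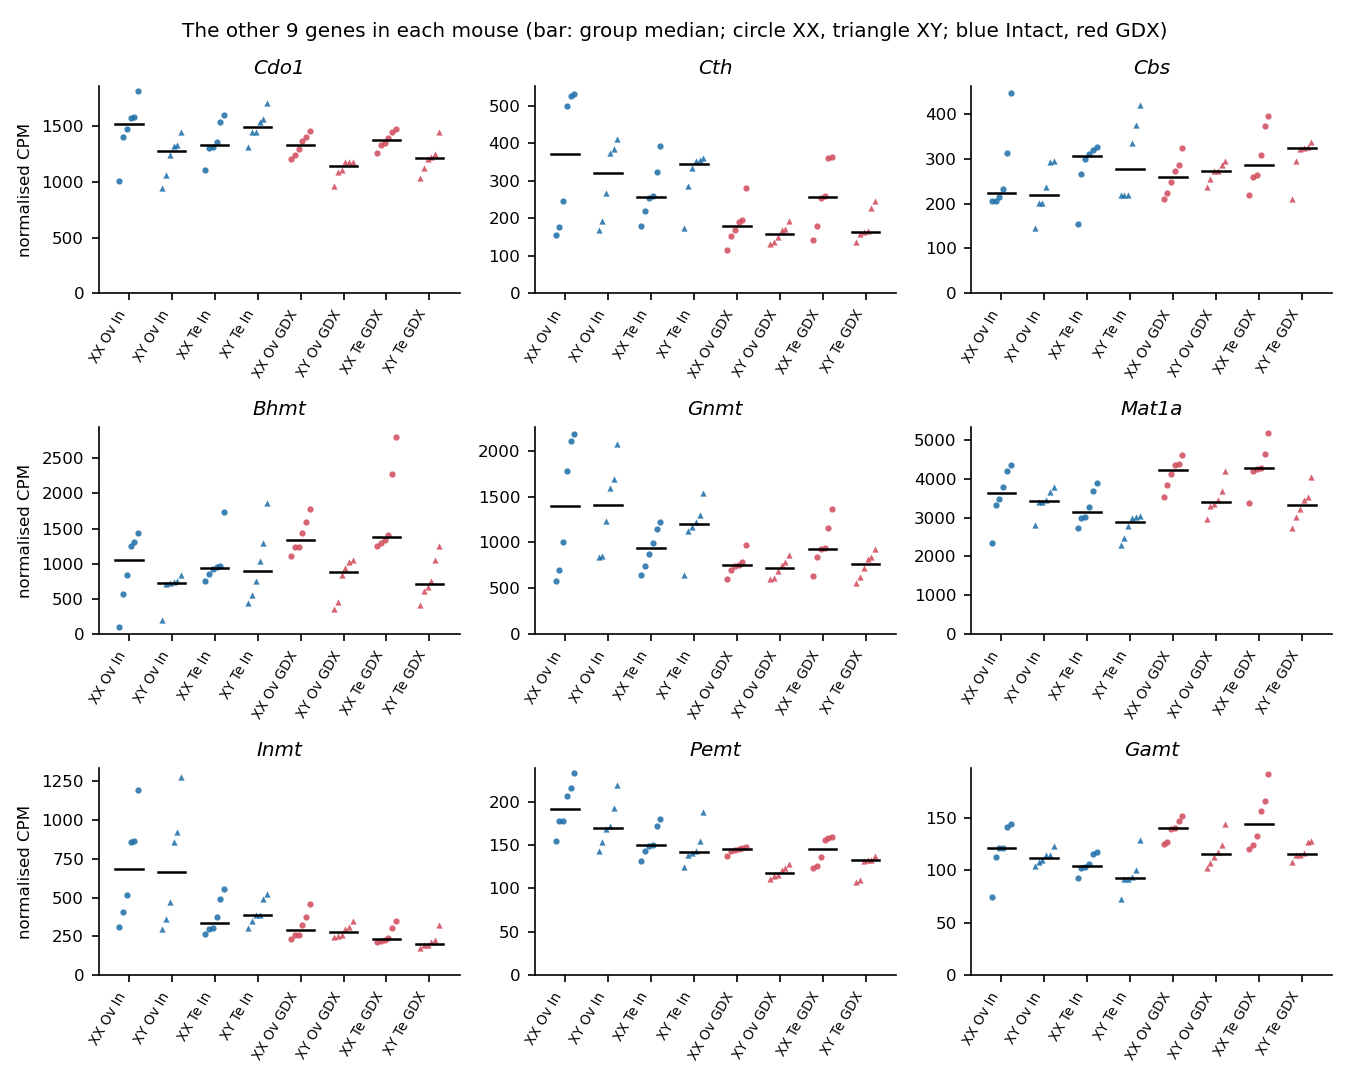
Levels of the 9 genes other than Csad in each of 48 mice by group (Ov ovaries, Te testes, In intact), in normalised CPM on linear axes from 0, with circles for XX, triangles for XY, blue for Intact, red for GDX and a bar at each group median. Inmt, Cth and Gnmt spread widely in the Ov Intact groups (Inmt 298 to 1281) and little in the Ov GDX groups (232 to 461), and Bhmt is higher in XX GDX than in XY GDX mice (medians 1378 and 796).

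After castration, the other 9 genes moved less than Csad, but the genes were chosen by its fall there, so that order is only a description. The log2 fold change was -0.72 (SE 0.19) for Inmt, -0.42 (SE 0.19) for Cth, -0.29 (SE 0.17) for Gnmt, -0.18 (SE 0.07) for Pemt and -0.15 (SE 0.07) for Cdo1. It was 0.07 (SE 0.14) for Cbs, 0.21 (SE 0.27) for Bhmt, 0.34 (SE 0.08) for Mat1a and 0.39 (SE 0.08) for Gamt. These values are means over XX and XY mice. The Cth median went from 256.5 to 256.7 normalised CPM in XX Te and from 343 to 164 in XY Te mice. For Gnmt it went from 934.5 to 934.2 and from 1198 to 766, and for Bhmt from 945 to 1378 and from 898 to 712. Of the 10 genes 6 had positive log2 fold changes in XX and 3 in XY mice. The difference between karyotypes was not tested. Inmt ranged from 263 to 558 normalised CPM in Te Intact (median 381) and from 173 to 349 in Te GDX mice (median 223), and 9 of 12 GDX mice lay below all Intact mice. Both neutrophil markers that could be tested were lower after castration, with sums of 1.52 to 113 normalised CPM in Te Intact and 0.0786 to 64.1 in Te GDX mice, as was Cela1. Of the 5 stellate cell and fibroblast markers 3 were higher (sums of 237 to 401 and 208 to 568). Of the 6 hepatocyte markers 2 were lower and 1 higher (sums of 59889 to 139198 and 74447 to 102634), and of the 4 cholangiocyte markers 2 were higher and 1 lower. Of the sinusoidal endothelium markers 1 was higher and 1 lower, 1 lymphocyte marker was higher, and no macrophage marker passed. The part of these markers in the castration values was not tested. With library totals Pemt was at 0.033 and Cdo1 at 0.06, so their direction depended on the scaling. With 1 surrogate variable Gnmt turned to 0.14 and Cbs to -0.09, Cth was at -0.03, Inmt at -0.32, Pemt at -0.04 and Bhmt at 0.67, while Cdo1 (-0.13), Mat1a (0.42) and Gamt (0.45) changed little. The median over the 10 genes was -0.16, against 0.07 over all genes.

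**Figure D3:**
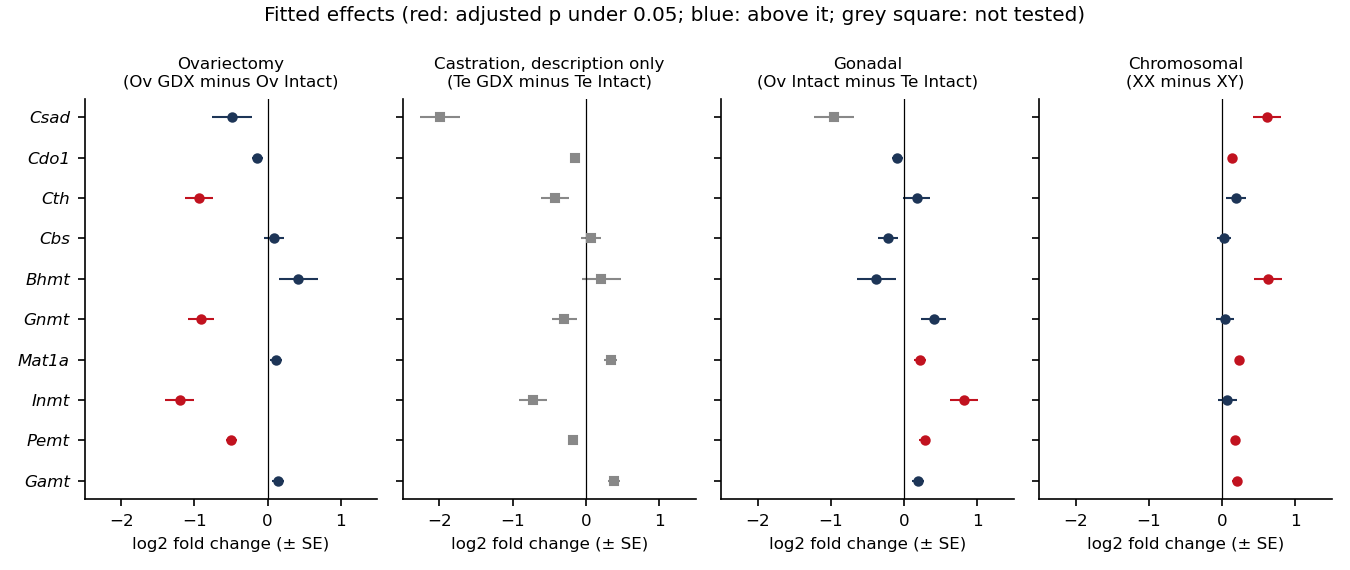
Fitted log2 fold changes of the 10 genes in 4 comparisons, with bars of 1 SE, red where the adjusted p was under 0.05, blue where it was not, and grey squares where no test was made. Csad lies farthest left after castration (-1.99), the comparison by which the genes were chosen. Inmt, Cth, Gnmt and Pemt are red after ovariectomy, and all red points between XX and XY mice lie to the right of 0.

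Between mice with intact ovaries and intact testes, Inmt, Pemt and Mat1a were higher in mice with ovaries. Inmt was 1.77 times higher (log2 0.82, SE 0.19, adjusted p = 0.00151), with 298 to 1281 normalised CPM in Ov Intact (median 685) and 263 to 558 in Te Intact mice (median 381), and 6 of 12 Ov mice lay above all Te mice. Pemt was 1.22 times higher (log2 0.28, SE 0.07, adjusted p = 0.00331), with medians of 178 and 146. Mat1a, the S-adenosylmethionine synthetase gene, was 1.17 times higher (log2 0.22, SE 0.08, adjusted p = 0.0454). That call was marginal, since it was lost in a fit of the 4 Intact groups alone (adjusted p = 0.151) and without the 3 deviating libraries (0.107), with no filter beyond 1 count (0.127) and with 1 surrogate variable (0.152). With library totals the same 3 genes passed, Inmt at 0.78, Pemt at 0.28 and Mat1a at 0.21 (adjusted p = 0.0406). Gnmt (log2 0.41, adjusted p = 0.0765) and Gamt (0.19, 0.0789) did not pass, nor did Cdo1, Cth, Cbs and Bhmt. Thus 3 of the 9 genes tested passed, against 25.3% of all genes, and 14.1% were higher. Those values are means over the karyotypes. Within XX mice 2 of the 9 passed, each higher with ovaries, and within XY mice 2 passed, 1 higher and 1 lower. The shares over all genes are not given for these counts, so nothing is read from them. Macrophage markers were also higher in Ov Intact mice, 2 of 4 past the test, with sums of 209 to 646 against 154 to 501 normalised CPM, as were 3 of 4 lymphocyte, 1 of 5 stellate cell and fibroblast and 1 of 4 sinusoidal endothelium markers, while 1 of 4 cholangiocyte markers and Cela1 were lower, and their part was not tested. After GDX none of the 9 genes passed between the gonadal types in edgeR's test (none with an unadjusted p under 0.05), and 0.0908% of all genes did. Inmt had a log2 difference of 0.34 there (interval -0.04 to 0.72).

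Of the 10 genes 6 were higher in XX than in XY mice past the test, and none was lower. They were Csad, Bhmt, Mat1a, Gamt, Pemt and Cdo1. Of all genes 36.7% passed and 21.9% were higher in XX mice. That direction depended on the scaling for the genes as a whole, with 3382 genes higher and 2275 lower in XX mice by TMM and 1207 higher and 3083 lower by library totals. With library totals only Csad and Bhmt still passed among the 10 genes.

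Bhmt, the betaine-homocysteine methyltransferase gene, was 1.54 times higher in XX mice (log2 0.63, SE 0.19, adjusted p = 0.00754). It passed in each alternative fit, with adjusted p between 0.00143 and 0.0415, and when each mouse was left out. In XX GDX mice it ranged from 1116 to 2810 normalised CPM (median 1378), and in XY GDX mice from 357 to 1259 (median 796). In that cohort 8 of 12 XX mice lay above every XY mouse, and the level was 1.98 times higher (log2 0.99, SE 0.27, adjusted p = 0.00337). In GDX mice 5 of the 10 genes passed, all higher in XX mice (Bhmt, Mat1a, Gamt, Pemt and Cdo1), against 34.3% of all genes, with 19.5% higher. That count fell to 1 gene, Bhmt, with library totals and to 1 gene with no filter beyond 1 count. It was 2 without the 3 deviating libraries, 2 without XY Ov Intact mouse 6 or XX Ov Intact mouse 6 and 3 without XY Te Intact mouse 3. Over all genes the direction in GDX mice also turned with the scaling, from 3001 higher and 2287 lower in XX mice by TMM to 787 higher and 3411 lower by library totals. In Intact mice Bhmt was spread from 93.4 to 1734 in XX (median 945) and from 199 to 1872 in XY mice (median 744), and the log2 difference was 0.26 (SE 0.27, adjusted p = 0.599). The change of the effect between the cohorts, 0.72 (interval -0.03 to 1.48), did not pass (adjusted p = 0.394), so a difference between cohorts was not shown.

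Csad was 1.52 times higher in XX mice (log2 0.61, SE 0.19, adjusted p = 0.0101). The log2 difference was 0.61 in Intact (adjusted p = 0.150) and 0.61 in GDX mice (adjusted p = 0.0774), so neither cohort passed alone, and their difference was 0.00 (interval -0.74 to 0.74). The ranges overlapped widely, from 23.3 to 221 normalised CPM in XX (median 53.3) and from 17.0 to 195 in XY mice (median 35.1), with 2 of 24 XX mice above all XY mice. The adjusted p was 0.0453 with library totals and 0.0537 with no filter beyond 1 count.

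Mat1a (log2 0.23, SE 0.06, adjusted p = 0.00155), Gamt (0.20, SE 0.06, 0.00732), Pemt (0.17, SE 0.05, 0.00669) and Cdo1 (0.14, SE 0.05, 0.0309) differed less. With library totals their log2 differences were 0.12, 0.09, 0.07 and 0.04, and none passed. Without the 3 deviating libraries Csad, Bhmt and Mat1a passed. Mat1a ranged from 3384 to 5190 normalised CPM in XX GDX (median 4266) and from 2722 to 4194 in XY GDX mice (median 3392), with 8 of 12 XX mice above all XY mice. In CPM without the TMM factor these ranges were 3622 to 4909 and 3384 to 4593. Likewise Bhmt, Pemt and Cdo1 did not overlap between XX and XY Ov GDX mice in normalised CPM, as held for 19.2% of all genes, but overlapped without the TMM factor, where 15.9% did not. Cth, Cbs, Gnmt and Inmt did not pass, with log2 differences between 0.02 and 0.19 by TMM and between -0.09 and 0.08 by library totals. In Intact mice none of the 10 passed in edgeR's test (1 with an unadjusted p under 0.05), against 10.7% of all genes. The same 4 macrophage markers were lower in XX than in XY GDX mice, with sums of 102 to 291 against 245 to 875 normalised CPM, as were all 4 lymphocyte markers and both testable neutrophil markers (sums of 0.0786 to 1.85 against 1.09 to 64.1). Of the other lists 2 of 4 cholangiocyte, 1 of 5 stellate cell and fibroblast and 1 of 6 hepatocyte markers were higher in XX GDX mice. The part of these markers in the differences was not tested. None of the 10 passed the test of the interaction of chromosomes with GDX (adjusted p at least 0.394, none with an unadjusted p under 0.05), against 2.12% of all genes.

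**Figure D4:**
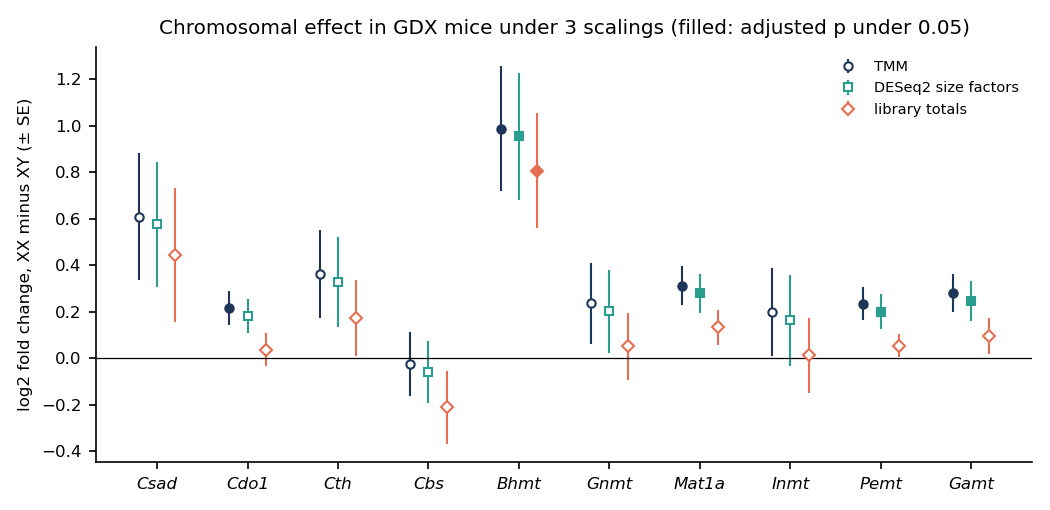
Log2 difference between XX and XY mice within the GDX cohort for each of the 10 genes, with bars of 1 SE, under TMM, the size factors of DESeq2 and library totals, filled where the adjusted p was under 0.05. Bhmt is filled under all 3 scalings (0.99, 0.96 and 0.81), and Mat1a, Gamt, Pemt and Cdo1 fall to between 0.04 and 0.13 with library totals.

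Within groups, mice with more Csad had less Cth, Gnmt, Mat1a, Bhmt and Inmt. Deviations from group means of log2(normalised CPM + 1) were correlated over the 48 mice, and p-values came from 100000 permutations within groups, two-sided and adjusted over the 9 relations. The share of all genes that relate to Csad this strongly was not counted. These relations are therefore not shown to be particular to the 10 genes. The relation was strongest for Cth (Pearson r = -0.65, permutation p = 7.00e-05, adjusted p = 0.000630, Spearman rho = -0.62 with permutation p = 5.00e-05). It held within the Intact (r = -0.66, permutation p = 0.00432) and the GDX cohort (r = -0.62, p = 0.00294) and without the 2 mice farthest from the Csad median (r = -0.59). Gnmt followed, with r = -0.57 (permutation p = 0.00147, adjusted p = 0.00661, rho = -0.55 with p = 0.000490). It had r = -0.65 in GDX mice (adjusted p = 0.00810 by permutation), -0.55 in Intact mice (adjusted p = 0.0698) and -0.49 without those 2 mice. Inmt had r = -0.47 (permutation p = 0.0101, adjusted p = 0.0182, rho = -0.47 with p = 0.00479), with -0.47 and -0.51 within the cohorts, neither past the adjusted threshold, and -0.40 without the 2 mice.

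Mat1a (r = -0.50, permutation p = 0.00241, adjusted p = 0.00723, rho = -0.40 with p = 0.00984, r = -0.41 without the 2 mice) and Bhmt (r = -0.46, permutation p = 0.0101, adjusted p = 0.0182, rho = -0.30 with p = 0.0579) passed over all mice but not within the GDX cohort, where r was -0.20 and -0.08. They had r = -0.67 and -0.60 in Intact mice. With library totals Mat1a had r = -0.30 and no longer passed (permutation adjusted p = 0.0845). The Bhmt relation rested on single mice, with r = -0.37 (permutation p = 0.0781) without the 2 farthest. Bhmt and Inmt were lost without XX Te Intact mouse 5 (both adjusted p = 0.0593). The other 4 genes did not pass: Cdo1 (r = -0.04, permutation p = 0.842, rho = 0.10, p = 0.530), Cbs (r = 0.18, p = 0.321, rho = 0.08, p = 0.639), Pemt (r = -0.20, p = 0.259, rho = -0.19, p = 0.237) and Gamt (r = -0.29, p = 0.108, rho = -0.26, p = 0.103). Cbs had r = 0.43 in Intact and -0.47 in GDX mice, so its value over all mice hides opposite signs. Among the other genes, Cth and Gnmt varied most closely together (r = 0.91 over 48 mice, given as a description), then Gnmt and Inmt (0.82). All points share libraries and scaling factors.

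**Figure D5:**
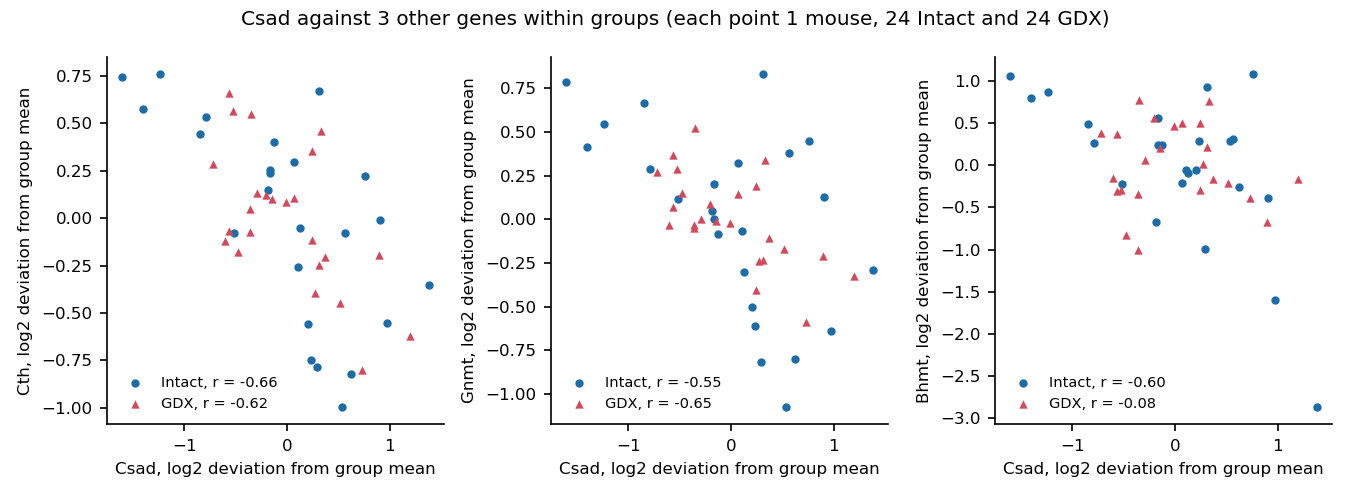
Deviations of Cth, Gnmt and Bhmt from their group means against those of Csad, on the log2 scale, with 1 point per mouse, blue circles for 24 Intact and red triangles for 24 GDX mice. Cth and Gnmt slope downward in both cohorts (r from -0.66 to -0.55), and Bhmt does so only in Intact mice (r = -0.60 against -0.08 in GDX mice).

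The genes whose levels most resembled Csad over the 48 mice were sought among the 8648 genes whose mean log2 CPM reached 3. They were Capn2 (Pearson r = 0.81), a calpain protease gene, Sh3bgrl2 (0.79), Nek6 (0.79), a mitotic kinase gene, Sgk2 (0.79), a serum and glucocorticoid regulated kinase gene, and Rhou (0.79), a small GTPase gene. These values describe likeness and include the group differences. For deviations within groups, which are part of that likeness, r was 0.47 to 0.60. Sgk2 had medians of 89.5 normalised CPM in Te Intact, 45.6 in Ov Intact, 33.9 in Te GDX and 33.1 in Ov GDX mice, against 125, 52.7, 31.3 and 38.7 for Csad. Capn2 differed less, with medians of 56.0, 51.3, 41.8 and 44.8 in the same order. The castration log2 fold changes were -1.27 for Sgk2, -0.66 for Rhou and Sh3bgrl2, -0.59 for Nek6 and -0.37 for Capn2, all smaller falls than that of Csad. Csad was chosen by its fall, and these genes by their likeness to Csad over the same mice. That order is therefore only a description.

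The 5 lists held 63 other genes of these pathways, of which 61 could be tested. After ovariectomy 44 passed, 19 higher and 25 lower, against 69.4% of all genes, 36.0% higher and 33.4% lower. With library totals 47 passed, 27 higher and 20 lower, against 47.8% higher and 24.4% lower over all genes, so the balance of directions turned with the scaling. Of 17 genes of choline, betaine and one-carbon supply 9 were higher (52.9%) and 3 lower by TMM, and 11 (64.7%) and 3 by library totals. Of 11 other methyltransferase and creatine genes 1 was higher and 7 lower (63.6%) by TMM, and 3 and 7 by library totals. Aldh1l1, a folate dehydrogenase gene, rose from 322 ± 96.5 to 723 ± 129 normalised CPM (SD, n = 12 each, log2 1.16, adjusted p = 1.66e-09), and Slc6a8, the creatine transporter gene, from 3.64 ± 1.81 to 7.17 ± 3.27 (log2 0.89, adjusted p = 0.000317). Chac2, which encodes a glutathione-degrading enzyme, fell from 61.3 ± 32.3 to 16.4 ± 1.55 (log2 -1.90, adjusted p = 2.64e-10), and Apip, of the methionine salvage pathway, from 33.1 ± 16.8 to 11.0 ± 1.14 (log2 -1.58, adjusted p = 6.54e-09). The SD of both falling genes was smaller after ovariectomy. With 1 surrogate variable 28 of the 61 passed, 13 higher and 15 lower.

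Of the methionine cycle and salvage list, 10 of 14 passed after ovariectomy (3 higher, 7 lower), of cysteine, taurine and sulfur oxidation 7 of 10 (3 higher, 4 lower) and of glutathione synthesis and turnover 7 of 9 (3 higher, 4 lower). After castration 40 of the 61 passed, 17 higher and 23 lower, against 63.3% of all genes, 33.4% higher and 29.9% lower. With library totals 42 passed, 27 higher and 15 lower, against 47.4% higher and 20.8% lower over all genes. Aldh1l1 was again highest (434 ± 129 to 828.7 ± 194 normalised CPM, log2 0.92, adjusted p = 3.18e-07), followed by Ggt5 (1.92 ± 0.66 to 3.12 ± 0.893, log2 0.71, adjusted p = 0.000208). The lowest were Chac2 (46.1 ± 17.1 to 18.2 ± 2.21, log2 -1.33, adjusted p = 4.29e-07) and Tpmt, the thiopurine methyltransferase gene (69.5 ± 19.5 to 31.6 ± 8.03, log2 -1.17, adjusted p = 4.97e-08). The castration and ovariectomy comparisons use different mice, and both span the cohort difference in diet and library make-up.

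Between Ov Intact and Te Intact mice 21 of the 61 passed, 10 higher and 11 lower in mice with ovaries, against 25.3% of all genes, 14.1% higher and 11.3% lower, and 7 passed in a fit of these groups alone. Nnmt, the nicotinamide methyltransferase gene (215 ± 102 against 132 ± 47.04, log2 0.70, adjusted p = 0.0211), and Enoph1, of methionine salvage (8.10 ± 2.22 against 5.05 ± 1.09, log2 0.68, adjusted p = 1.03e-05), were highest. Ethe1, a mitochondrial persulfide dioxygenase gene (15.8 ± 3.58 against 23.5 ± 3.89, log2 -0.59, adjusted p = 3.08e-06), and Aldh7a1, whose enzyme can form betaine (298 ± 45.1 against 436 ± 77.1, log2 -0.55, adjusted p = 6.40e-06), were lowest. After GDX none of the 61 passed between the gonadal types in edgeR's test (1 with an unadjusted p under 0.05), and 0.0908% of all genes did, so a count of 0 is near the background.

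Between XX and XY mice 36 of the 61 passed, 34 of them higher in XX mice, against 36.7% of all genes, with 21.9% higher. With library totals 19 passed, 15 higher and 4 lower, where over all genes 7.83% were higher and 20.0% lower. Of the 17 choline, betaine and one-carbon genes 13 passed by TMM and 5 by library totals, each of them higher in XX mice. Slc6a8 (7.201 ± 3.38 against 4.32 ± 1.29, n = 24 each, log2 0.69, adjusted p = 0.000233) and Gldc, of the glycine cleavage system (148 ± 31.5 against 95.7 ± 29.2, log2 0.65, adjusted p = 4.90e-07), were highest. Gatm, of creatine synthesis (11.0 ± 4.77 against 13.3 ± 3.56, log2 -0.32, adjusted p = 0.0178), and Mtr, the methionine synthase gene (15.97 ± 2.97 against 18.9 ± 5.88, log2 -0.21, adjusted p = 0.0123), were the 2 that were lower by TMM. The median log2 difference of the 61 genes was 0.19, against 0.05 over all genes, and with library totals 0.09 against -0.05.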

How the data were processed

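Per the labels, liver RNA of 48 mice was made into libraries with a KAPA mRNA HyperPrep kit after TRIzol extraction. The authors aligned the reads to GRCm39 with STAR (version 2.7.10a in the submitters' processing notes, which also name DESeq2, version 1.36.0) and deposited whole-number read counts per gene, not normalized. The annotation release and strand setting are not given in the sources used here, so overlapping genes can share reads. The table held 55414 Ensembl identifiers, 31020 (56.0%) of which matched a symbol (3 list genes through RefSeq synonyms), and 4 summary rows, 25.5 to 42.3% of the reads, which were left out. Replicates are mice with separate identifiers. Each mouse gave 1 library.

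Counts were tested with edgeR (version 4.0.16, R version 4.3.3; robust quasi-likelihood, TMM, filterByExpr, a mean for each of 8 groups) with Benjamini-Hochberg adjustment over 15414 genes and a threshold of 0.05. On simulated counts for the ovariectomy comparison with 200 of 14989 genes changed 2-fold, 170 (85%) were recovered with 4 false calls. That simulation changed few genes, while 69.4% of genes passed in the real comparison, so it does not measure the error rate there. Reads per mouse were 13071874 to 20045141. Floors cover counting error only. Relations used Python (version 3.11.15), numpy (version 2.4.6), pandas (version 2.3.3) and scipy (version 1.17.1), with plots by matplotlib (version 3.10.9). Exon lengths came from GENCODE vM1, an earlier build than the counts. Intervals are 2 SE.

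The 10 genes, the pathway lists and the markers were chosen with earlier results of these data known. Named are the 10 genes, in 4 comparisons the 2 highest and 2 lowest listed pathway genes past the threshold whose mean log2 CPM reached 0, and the 5 genes most like Csad. Csad was not tested in comparisons of ovaries with testes, which share mice with castration. Alternatives were size factors of DESeq2, library totals, keeping each gene with 1 count, a filter of 10 counts in 6 mice, 47 mice (without XX Te Intact mouse 5, which the study left out of one gene's plots), 1 surrogate variable from sva (version 3.50.0), the compared groups alone, the Wald test of DESeq2 (version 1.42.0), a threshold of 0.01 and each mouse left out. Leaving out the 3 deviating libraries was added after seeing the data.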

Additional observations from a re-analysis of the deposited data

Results flagged for a closer look

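Among 80 combinations of gene and group with 6 mice each, 5 held a mouse whose gap to its nearest neighbour exceeded 0.625 of the group's range, where chance alone flags about 1 in 20. Bhmt was lowest in XY Ov Intact mouse 1, at 199 normalised CPM with the next mouse at 714, and highest in XX Te Intact mouse 5, at 1734 with the next at 962. Cbs was lowest in XX Te Intact mouse 2, at 154 with the next at 266, and in XY Te GDX mouse 3, at 210.5 with the next at 295. Inmt was highest in XY Te GDX mouse 4, at 320.1 with the next at 223.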

How the results depend on the processing

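With library totals 7 of the 10 genes passed after ovariectomy (3 higher, 4 lower) in place of 4, 2 in place of 6 between XX and XY mice, and 1 in place of 5 between XX and XY GDX mice. Pemt after castration went from -0.18 to 0.033 (log2). With no filter beyond 1 count, 2 passed between XX and XY mice and 1 in the GDX cohort. Without the 3 deviating libraries 3 and 2 passed. With 1 surrogate variable 1 passed between XX and XY Intact mice in place of 0. With 47 mice 3 relations of Csad passed in place of 5. The cause was not tested. As each mouse was left out, the count for XX against XY GDX mice ranged from 2 to 6, with 3 without XY Te Intact mouse 3 and 2 without XY Ov Intact mouse 6 or XX Ov Intact mouse 6. It ranged from 4 to 6 over both cohorts, from 4 to 5 after ovariectomy and from 2 to 4 between the gonadal types of Intact mice. The fall of Csad after castration was -2.08 to -1.88. The falls of Inmt, Cth, Gnmt and Pemt after ovariectomy passed in every fit but the one with the surrogate variable, where only Pemt did. No paired analysis was possible because each mouse has its own identifier and no number links mice of different groups. GDX and Intact mice formed separate cohorts, so cohort and GDX cannot be separated, and the mice carry no batch labels. Depth kept none of the 10 genes out of the tests.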
